A study of Homo sapiens with 18 samples.

Results

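Replicate 3 of a CsA time course in HK-2 cells was compared with replicates 1 and 2, to ask whether cells in a different expression state answered CsA in another way. HK-2 is an immortalized line of human proximal tubular epithelium. The labels give CsA with no dose and no full name (usually cyclosporin A), and control cells received its vehicle. The series held 18 Affymetrix arrays in 6 groups of 3 biological replicates, namely CsA and control at 12, 24 and 48 h, and all groups shared the line, the medium and the laboratory. Each CsA array was set against the control array of the same time and replicate number, which gave 9 differences. Replicate 3 supplied 3 of these differences (6 arrays), and replicates 1 and 2 supplied 6 (12 arrays). Replicate 3 was singled out because earlier results of these data had shown its arrays to lie apart, and it is 1 replicate against 2. The labels do not say that the replicates came from separate cultures, so p-values measure the spread between these pairs only. All levels are GCRMA values on the log2 scale, a response is CsA minus control in log2 units, and a difference between replicates is the response of replicate 3 minus the mean response of replicates 1 and 2.

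Cyclosporin A binds cyclophilins, a family of folding enzymes, and the complex with cyclophilin A inhibits the phosphatase calcineurin. Cyclophilin B works in the endoplasmic reticulum (ER), where chaperones fold secreted and membrane proteins. When unfolded proteins build up there, ATF6 and XBP1 raise the chaperones, while the kinase PERK acts through the transcription factor ATF4 on genes of amino acid supply. In the kidney, cyclosporin A is known for tubular toxicity and, with long use, for fibrosis, and proximal tubule cells in culture can lose epithelial features.

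The state of replicate 3 differed from that of the other replicates, also among control arrays alone. The marker levels and sums below are over control and CsA arrays together. Between its control arrays and those of replicate 1 or 2 at the same time, the SD of the level difference over 10717 genes was 0.632 to 0.796, against 0.225 to 0.494 between the controls of replicates 1 and 2. The adhesion protein gene CDH1 (E-cadherin) had a mean level of 3.80 in replicate 3, against 8.19 in replicates 1 and 2, and the summed level of the 8 epithelial markers was 71.4 to 77.2, against 84.6 to 86.9. The simple-epithelium keratins KRT8, KRT18 and KRT19 and the adhesion gene EPCAM were at 9.93 or more on every array. Of 18 measured proximal tubule markers only DPP4, SLC4A4, PAX8 and MIOX reached 4, and they did so on every array. LRP2, CUBN, AQP1 and SLC34A1, which define the segment, did not exceed 3.05 on any array, so these 4 genes were at the foot of the scale. The proximal tubule list summed to 75.0 to 76.4 in replicate 3, against 77.6 to 80.5 in replicates 1 and 2. The fibroblast list, with 6 of 10 members reaching 4, summed to 48.5 to 52.1, against 45.9 to 55.2. Of 5 measured podocyte markers 3 (SYNPO, PODXL and PTPRO) reached 4, and the list summed to 26.2 to 27.3 in replicate 3, against 26.9 to 28.4 in replicates 1 and 2. Of 7 measured distal nephron markers 1 (SCNN1A) reached 4, and the sums did not overlap, at 21.2 to 23.7 in replicate 3, against 25.0 to 25.8. None of 5 leukocyte markers and 1 of 8 endothelial markers (FLT1) reached 4, with sums of 12.0 to 12.6 and 23.0 to 23.5 in replicate 3, against 12.0 to 12.3 and 22.9 to 23.4. The part of these differences in the results below was not tested.

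A pair of promoters is shown because HSPA5 and ASNS stand for the ER arm and the ATF4 arm, whose responses are described after the counts. HSPA5 encodes the ER chaperone BiP, and its 250 bases before the RefSeq start (GRCh38.p14, chr9:125241344-125241593, minus strand) hold a match to the ER stress element, in capitals. ASNS encodes asparagine synthetase, and its window (chr7:97872409-97872658, minus strand) holds a match to the composite element bound by ATF4 with C/EBP proteins, in capitals.
HSPA5: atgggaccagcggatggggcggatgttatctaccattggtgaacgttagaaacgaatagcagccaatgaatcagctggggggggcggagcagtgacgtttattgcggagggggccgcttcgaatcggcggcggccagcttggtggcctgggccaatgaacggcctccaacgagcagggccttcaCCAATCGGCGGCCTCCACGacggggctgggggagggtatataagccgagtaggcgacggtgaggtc
ASNS: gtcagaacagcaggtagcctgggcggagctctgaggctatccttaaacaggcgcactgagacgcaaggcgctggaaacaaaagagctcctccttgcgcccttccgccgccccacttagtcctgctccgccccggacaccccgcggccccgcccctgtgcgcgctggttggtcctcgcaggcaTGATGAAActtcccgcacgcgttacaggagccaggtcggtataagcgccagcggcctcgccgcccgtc
The letters searched on both strands were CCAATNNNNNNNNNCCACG for the ER stress element and TGATGNAA for the composite element. The first was found in 7 of 25 promoters of the ER chaperone list (28.0%), against 0.146% of the promoters of 8884 tested genes. The second was found in 3 of 24 promoters of the ATF4 list (12.5%), namely ASNS, CHAC1 and ATF3, against 1.33% of the tested genes. These are matches of letters in a window and say nothing of binding in these cells.

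Over the 3 times together, the response to CsA could not be shown to differ between replicate 3 and replicates 1 and 2 for any gene. In limma, 0 of 10717 genes (0%) passed an adjusted p of 0.05, the smallest adjusted p was 0.27, and 879 genes (8.2%) had an unadjusted p under 0.05. Of these, 276 (2.58% of the genes tested) lay higher in replicate 3 and 603 (5.63%) lower. That split rested on the scaling, since after quantile normalization 459 lay higher and 393 lower. By time, the genes passing were 0 (0%) at 12 h, 0 (0%) at 24 h and 12 (0.112%) at 48 h, and 401, 795 and 1198 genes had an unadjusted p under 0.05.

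Each side also had a response of its own. By the same fit 37 genes rose (0.345%) and 58 fell (0.541%) with CsA in replicate 3, against 729 that rose (6.8%) and 881 that fell (8.22%) in replicates 1 and 2, where the mean rests on 6 differences and not 3. Of the 37 rises 30 were also called as rises in replicates 1 and 2, which is 81.1% of the shorter list and 4.12% of the longer one. Of the 58 falls 37 were shared, 63.8% of the shorter list and 4.2% of the longer. The genes that rose on both sides included PPIB, the ER cyclophilin, PDIA3, a disulfide isomerase, and LMAN1, a cargo receptor between ER and Golgi. Of the calls in replicate 3, 1 rise and 6 falls had all 12 arrays of replicates 1 and 2 under 4, so the spread behind their p came largely from values at the foot of the scale. The counts moved with single pairs. The 95 genes of replicate 3 became 0 without replicate 1 or replicate 2 at 12 h, 1 without replicate 1 at 24 h or without replicate 3 at 12 or 24 h, 13 without replicate 3 at 48 h, and 355 and 204 without replicate 1 and replicate 2 at 48 h. The 1610 genes of replicates 1 and 2 became 515 and 584 without their 12 h pairs, 1046 without replicate 1 at 24 h and 569 without replicate 2 at 24 h, and 0 when the pairing was ignored.

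Genes chosen in replicates 1 and 2 alone, from a fit that never saw replicate 3, mostly moved the same way in replicate 3. That fit called 555 rises (5.18%) and 726 falls (6.77%). In replicate 3 the mean response of 495 of the 555 (89.2%) was positive, and that of 684 of the 726 (94.2%) was negative, where 43.6% and 56.4% of all genes had those signs. The agreement in sign was lowest at 12 h and highest at 48 h: 72.3%, 78.2% and 85.8% of the rises and 66.1%, 76.4% and 92.6% of the falls. All 3 times went the same way for 297 rises (53.5%) and 372 falls (51.2%). The median response of the rises was 0.25 in replicate 3, against 0.39 in the replicates that chose them, and that of the falls was -0.31, against -0.40. These last values favour the choosing replicates by construction. Without replicate 1 or 2 at 12 h the fit on the remaining pairs called 0 genes, and without replicate 2 at 24 h it called 3. It called 487 without replicate 1 at 24 h. Fitted alone, the 3 differences of replicate 3 gave 0 calls and 768 genes at an unadjusted p under 0.05. That fit had no term for time, so a change of the response with time entered its error. The fit of replicates 1 and 2 alone had terms for time, so the counts are not comparable.

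**Figure D1:**
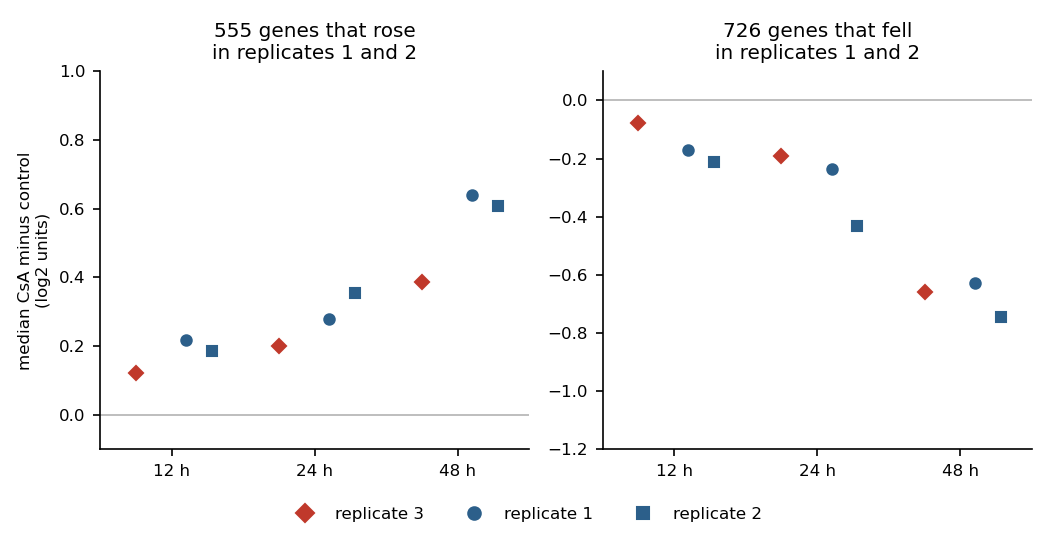
Median response (CsA minus control, log2 units) at 12, 24 and 48 h of the genes that rose (left, 555) or fell (right, 726) in replicates 1 and 2 fitted alone. Red diamonds are replicate 3 and blue circles and squares are replicates 1 and 2. The rises had medians of 0.12, 0.20 and 0.39 in replicate 3, nearer 0 than in either other replicate at each time, and the falls at 48 h had -0.66 in replicate 3, between replicates 1 (-0.63) and 2 (-0.75).

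Genes chosen in replicate 1 or in replicate 2 were read in replicate 3 and in the replicate of that pair that did not choose them. The terms are not equal, since the controls of replicates 1 and 2 lay closer to each other than to replicate 3. No genes were chosen in replicate 3. The part of that likeness in the medians below was not tested. At 48 h, the 193 genes with a response of 1 or more in replicate 1 had a median response of 0.60 in replicate 3, against 0.81 in replicate 2, and the 200 genes at -1 or less had -1.19, against -1.05. For the 238 and 404 genes chosen in replicate 2, the medians were 0.38 and -1.005 in replicate 3, against 0.48 and -0.75 in replicate 1. The rises chosen at 48 h were therefore smaller in replicate 3 under both choices, and the falls were larger. At 24 h, the 134 genes chosen as rises in replicate 2 had 0.28 in replicate 3, against 0.53 in replicate 1, and the 38 chosen in replicate 1 had 0.29, against 0.80 in replicate 2. The 69 falls chosen at 24 h in replicate 2 had -0.30, against -0.51 in replicate 1, and the 10 chosen in replicate 1 had -0.23, against -0.63 in replicate 2, so at 24 h the falls too were smaller in replicate 3. Across all genes, which are not independent replicates, Pearson's r of the responses was 0.206 and 0.241 between replicate 3 and replicates 1 and 2 at 12 h, against 0.287 between replicates 1 and 2. At 24 h r was 0.338 and 0.313, against 0.519, and at 48 h it was 0.602 and 0.573, against 0.588. The gap in likeness seen at 24 h was thus not seen at 48 h. The number of genes with a response of -1 or less at 48 h was 520 in replicate 3, against 200 and 404 in replicates 1 and 2, and the number at 1 or more was 85, against 193 and 238. After quantile normalization the falls numbered 427 in replicate 3, against 214 and 440 in replicates 1 and 2, so replicate 3 no longer had the most. The rises then numbered 122, against 204 and 212.

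The ER chaperones and the genes that clear misfolded ER proteins had a positive median response in each replicate at each time. The median response of the 28 tested members was 0.44, 0.46 and 0.48 at 12, 24 and 48 h in replicate 3, against 0.57, 0.32 and 1.11 in replicate 1 and 0.42, 0.40 and 0.54 in replicate 2. Only at 48 h did replicate 3 lie below both. By the fit over the 3 times, 24 members rose in replicates 1 and 2 and 1 (PDIA3) in replicate 3, although 27 of 28 had a positive mean response there. Over all genes 6.8% rose in replicates 1 and 2, where the mean rests on 6 differences, and 0.345% in replicate 3, where it rests on 3. The difference had a median of -0.11, against -0.03 over all genes, and 20 members lay lower in replicate 3, against 6148 of 10717 genes. None had an unadjusted p under 0.05. In such bulk RNA, fewer cells with a transcript and less of it per cell cannot be told apart. The median difference was -0.04 without replicate 1 at 48 h and -0.03 without replicate 3 at 48 h, but -0.20 without replicate 2 at 48 h and -0.18 without replicate 1 or replicate 3 at 24 h.

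HSPA5, whose promoter is shown above, stood in replicate 3 at 13.35, 13.19 and 15.44 with CsA at 12, 24 and 48 h, against 12.49, 12.37 and 15.26 in its controls. In replicate 1 it stood at 13.99, 12.96 and 15.29, against 12.79, 12.40 and 14.69, and in replicate 2 at 13.90, 13.73 and 15.59, against 12.76, 12.38 and 15.12. CsA arrays lay above their own controls in all 9 pairs, and every 48 h array, control or treated, lay above all earlier ones. The response averaged 0.62 in replicate 3 (adjusted p = 0.067) and 0.89 in replicates 1 and 2 (adjusted p = 0.0055), a difference of -0.27 ± 0.16 (SE). DNAJB9, a co-chaperone of BiP, had responses of 1.39, 1.60 and 0.44 in replicate 3, against 0.66, 0.77 and 1.32 in replicate 1 and 0.92, 1.45 and 0.54 in replicate 2. Replicate 3 lay above both others at 12 and 24 h and below them at 48 h. HYOU1, a large ER chaperone, had 0.47, 0.34 and 0.77 in replicate 3, against 0.91, 0.56 and 1.65 and then 0.81, 0.94 and 0.63. ERN1, the sensor that splices XBP1, had -0.52, 0.39 and -0.21 in replicate 3, against -0.24, 1.16 and 0.43 in replicate 1 and -0.61, 2.40 and -0.08 in replicate 2, and passed in neither.

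The vesicle coats and cargo receptors between ER and Golgi had like medians on both sides. The median response of 23 members was 0.29 in replicate 3, against 0.24 in replicates 1 and 2, with 12 higher and 11 lower in replicate 3. In replicate 3, 2 members rose (LMAN1 among them), where 0.345% of all genes did. In replicates 1 and 2, 14 rose, where 6.8% of all genes did. LMAN1 had responses of 0.38, 0.60 and 1.06 in replicate 3 (mean 0.68, adjusted p = 0.0257), against 0.31, 0.35 and 0.76 in replicate 1 and 0.47, 0.31 and 0.80 in replicate 2. One of its 2 other probe sets gave the opposite sign for the difference. PPIB had 0.71, 0.79 and 0.86 in replicate 3, against 0.61, 0.62 and 1.55 in replicate 1 and 0.62, 0.69 and 0.94 in replicate 2. Its difference was -0.05 ± 0.16 (SE), and here too a second probe set had the opposite sign. PPIA, the cytosolic target of cyclosporin A, stayed between 14.60 and 15.02 on all arrays, with a difference of 0.07 ± 0.09. Of 14 cyclophilins 7 lay higher and 7 lower in replicate 3. Among 11 tested genes of calcineurin and NFAT, the calcineurin subunit gene PPP3CC had responses of -0.20, -0.08 and -0.32 in replicate 3, against 0.50, 0.41 and -0.04 in replicate 1 and 0.15, 1.37 and 1.32 in replicate 2 (unadjusted p = 0.0308, adjusted p = 0.577). RCAN1, a target of calcineurin signalling, had a difference of 0.05 ± 0.14.

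The targets of ATF4 had lower median responses in replicate 3 than in either other replicate at 12 and 48 h, and one between them at 24 h. The median response of 29 members was 0.11, 0.54 and 0.12 at 12, 24 and 48 h in replicate 3, against 0.17, 0.42 and 0.61 in replicate 1 and 0.25, 1.35 and 0.19 in replicate 2. In replicates 1 and 2, 16 members rose, where 6.8% of all genes did. In replicate 3, where 0.345% of all genes rose, 0 members did, and 23 of 29 were positive. The difference lay below 0 for 25 of 29 members with a median of -0.27, and 4 (STC2, ALDH1L2, PSAT1 and ASNS) had an unadjusted p under 0.05, where 5.63% of all genes did in that direction. None passed the adjusted threshold. The median was -0.14 without replicate 2 at 24 h, the pair with the largest list median, -0.20 without replicate 3 at 24 h and -0.41 without replicate 1 at 24 h.

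STC2, a secreted glycoprotein raised in ER stress, had the smallest p of the list. With CsA it stood at 4.09, 6.63 and 7.81 in replicate 3, against 5.09, 5.46 and 8.05 in its controls. In replicate 1 the levels were 3.87, 5.76 and 7.27, against 3.70, 3.13 and 6.79, and in replicate 2 they were 4.22, 7.21 and 7.46, against 3.52, 4.47 and 7.04. In replicate 3 CsA lay above control only at 24 h, and in the other replicates it lay above at all times. Both 12 h arrays of replicate 1, its 24 h control and the 12 h control of replicate 2 were under 4. The responses of replicates 1 and 2 are thus partly taken from values at the foot of the scale. The difference was -1.22 ± 0.18 (unadjusted p = 0.000112, adjusted p = 0.27), with an adjusted p of 0.243 to 1 over the alternatives.

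ASNS, the other promoter shown, had responses of -0.16, 0.99 and 0.35 in replicate 3, against 1.04, 1.19 and 0.84 in replicate 1 and 1.08, 2.41 and 0.26 in replicate 2, a difference of -0.74 ± 0.29 (adjusted p = 0.578). At 12 h its response was below 0 only in replicate 3. SLC7A11, the cystine carrier, had 0.12, 3.08 and 0.33 in replicate 3, against 0.83, 3.30 and 0.66 and then 0.56, 4.63 and 0.53, so its peak at 24 h was shared. BCAT1, a branched-chain aminotransferase not on the list, had 0.02, 0.13 and 0.44 in replicate 3. It had 0.79, 1.29 and 1.34 in replicate 1 and 0.71, 2.06 and 0.83 in replicate 2. Its levels in the controls of replicate 3 were 9.59, 9.12 and 10.64, above those of the other controls at each time (6.78 to 10.33). The difference was -0.97 ± 0.23 (adjusted p = 0.508). ALDH1L2, a mitochondrial folate enzyme, had 0.11, 1.05 and 0.98 in replicate 3, against 1.47, 1.93 and 1.95 and then 1.99, 3.01 and 1.21, but both of its other probe sets had a difference of the opposite sign. INHBE, an activin subunit gene, was near 0 or below at 12 h in replicate 3 (-0.40, against 0.74 and 0.62) and stood at 2.27 at 24 h, against 2.26 and 3.74.

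Among the regulators, ATF4 itself had 0.15, 0.71 and 0.27 in replicate 3, against 0.50, 0.60 and 0.65 in replicate 1 and 0.44, 1.15 and 0.14 in replicate 2. DDIT3 (CHOP), a factor tied to death under ER stress, had 0.25, 1.60 and -0.11 in replicate 3, against 0.22, 1.14 and 0.87 and then 0.31, 3.05 and 0.08. Neither the difference of ATF4 (-0.21 ± 0.15) nor that of DDIT3 (-0.37 ± 0.38) had an unadjusted p under 0.05. The enzymes that charge tRNAs lay lower in replicate 3 for 15 of 17 members, where 6148 of 10717 genes did. Their median difference was -0.22. In replicates 1 and 2, 9 rose, where 6.8% of all genes did, and in replicate 3 0, where 0.345% did. LARS1, the leucine enzyme, had responses of -0.03, 0.05 and 0.41 in replicate 3, against 0.22, 0.36 and 0.49 in replicate 1 and 0.10, 0.57 and 0.44 in replicate 2. The tRNA median was -0.14 without replicate 3 at 24 h.

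**Figure D2:**
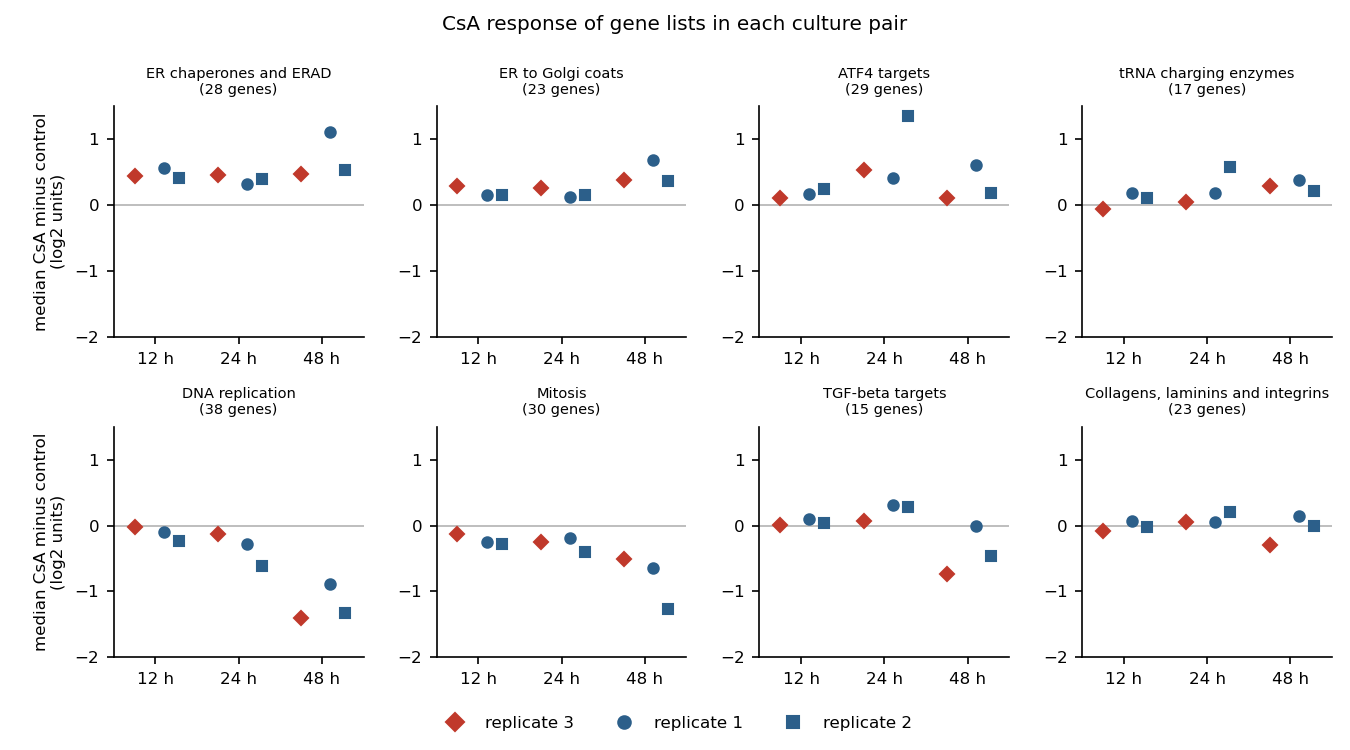
Median response (CsA minus control, log2 units) of 8 gene lists at 12, 24 and 48 h, with the number of genes tested above each panel. Red diamonds are replicate 3 and blue circles and squares are replicates 1 and 2. The ER chaperones had 0.44 to 0.48 in replicate 3 at every time, and the TGF-beta targets at 48 h had -0.74 in replicate 3, below replicate 2 (-0.46) and replicate 1 (near 0).

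DNA replication genes had negative medians in every pair, and the genes of mitosis had medians nearer 0 in replicate 3 than in the others at 12 and 48 h. For 38 replication genes the median response was -0.03, -0.14 and -1.40 at 12, 24 and 48 h in replicate 3, against -0.09, -0.28 and -0.89 in replicate 1 and -0.24, -0.62 and -1.33 in replicate 2. In replicates 1 and 2, 33 fell, where 8.22% of all genes did, and in replicate 3, 1 (HELLS) fell, where 0.541% did. Replicate 3 lay nearest 0 at the 2 earlier times and lowest at 48 h. HELLS, a chromatin remodeller of dividing cells, had responses of -0.35, -0.42 and -2.41 in replicate 3, against -0.29, -0.32 and -1.85 in replicate 1 and -0.28, -1.02 and -2.32 in replicate 2. POLE, the leading-strand polymerase, had -0.36, -0.10 and -1.74 in replicate 3, against 0.05, -0.23 and -0.50 and then -0.05, -0.32 and -0.41. GINS4, of the replication helicase, had 0.10, -0.25 and -0.10 in replicate 3, against -0.47, -0.49 and -0.46 and then -1.33, -0.49 and -0.56. The difference of the list had a median of 0.07, which was -0.09 without replicate 3 at 24 h, 0.0007 without replicate 2 at 24 h, 0.14 without replicate 1 at 48 h and 0.26 without replicate 3 at 48 h.

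For 30 genes of mitosis the median response was -0.12, -0.25 and -0.50 in replicate 3, against -0.26, -0.19 and -0.65 in replicate 1 and -0.28, -0.40 and -1.26 in replicate 2. In replicates 1 and 2, 25 fell, where 8.22% of all genes did, and in replicate 3, 0 did, where 0.541% of all genes fell. The difference lay above 0 for 29 of 30 members with a median of 0.21, where 4569 of 10717 genes lay above 0, and 3 members (DLGAP5, NUSAP1 and CENPE) had an unadjusted p under 0.05, where 2.58% of all genes did in that direction. The median was 0.09 without replicate 2 at 48 h and 0.10 without replicate 3 at 48 h, so its size rested on 48 h. DLGAP5, a spindle protein, had responses of 0.05, -0.10 and -0.64 in replicate 3. It had -0.31, -0.28 and -1.03 in replicate 1 and -0.29, -0.64 and -1.50 in replicate 2 (difference 0.44 ± 0.14, adjusted p = 0.543). NUSAP1, which binds spindle microtubules, had values near 0 (at most 0.15) at 12 and 24 h in replicate 3 and -0.58 at 48 h, against -0.26, -0.24 and -0.93 and then -0.22, -0.54 and -1.66. CDK6, a kinase of the G1 phase, fell in replicate 3 (-0.39, -0.56 and -0.49, adjusted p = 0.0352) and did not pass in replicates 1 and 2 (-0.09, -0.16 and 0.08, then 0.11, -0.28 and -0.03), and its difference of -0.42 ± 0.09 did not pass (adjusted p = 0.466).

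**Figure D3:**
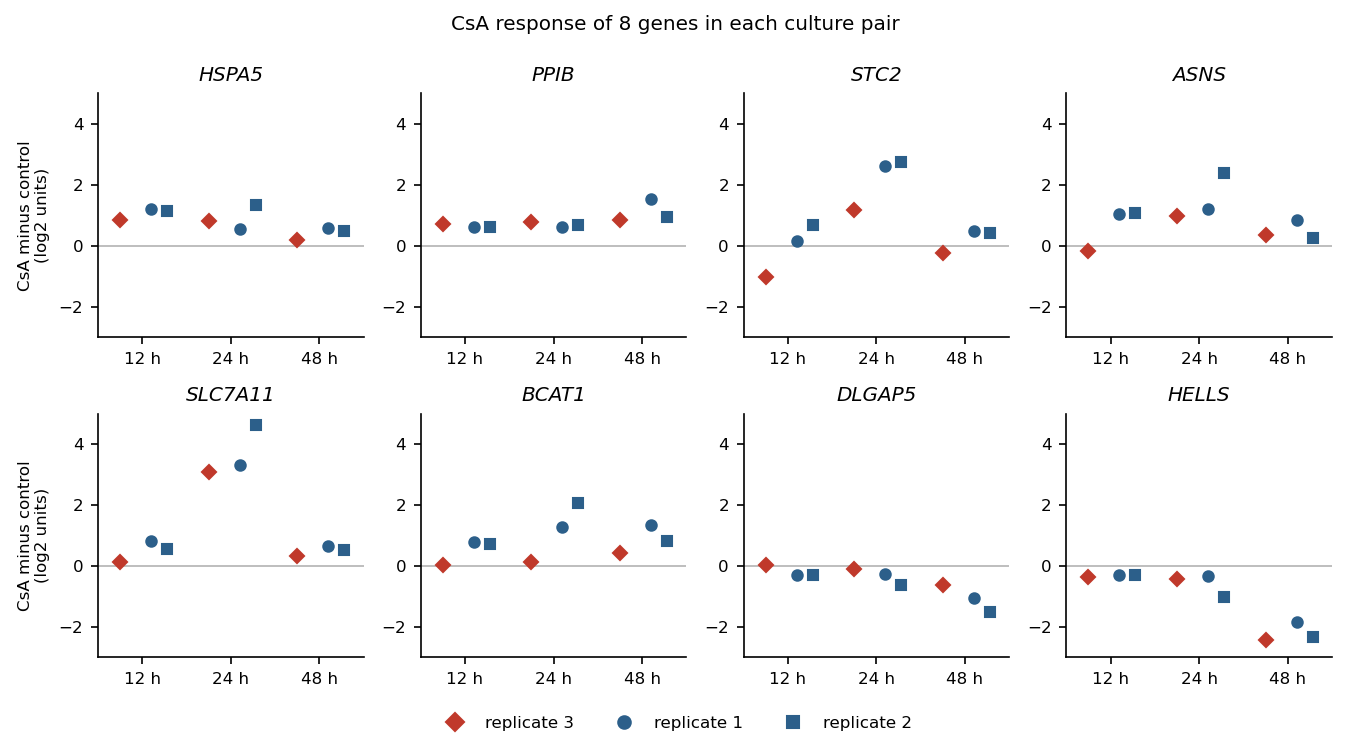
Response (CsA minus control, log2 units) of 8 genes at 12, 24 and 48 h. Red diamonds are replicate 3 and blue circles and squares are replicates 1 and 2. HSPA5 and PPIB lay above 0 in all 9 pairs, STC2 lay at -1.01 at 12 h in replicate 3, against 0.16 and 0.70, and HELLS at 48 h lay at -2.41, against -1.85 and -2.32.

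Genes of the matrix and of TGF-beta signalling, which drives fibrosis in kidney, lay lower in replicate 3, most of all at 48 h. Of 15 tested TGF-beta genes 14 had a difference below 0, with a median of -0.17, and 4 (PMEPA1, TGFB2, SKIL and SMAD7) had an unadjusted p under 0.05, against 5.63% of all genes in that direction. Of 23 collagens, laminins and integrins 18 lay below 0 with a median of -0.18, and 5 had an unadjusted p under 0.05. Over all genes 6148 of 10717 lay below 0. At 48 h the medians were -0.32 and -0.38, against -0.08 over all genes, and 5 of 15 and 10 of 23 members had an unadjusted p under 0.05 in either direction, against 11.2% of all genes. After quantile normalization the 48 h medians were -0.24 and -0.33. Without replicate 3 at 48 h the medians over the times were -0.09 for the TGF-beta genes and -0.08 for the matrix genes, and without replicate 3 at 12 h they were -0.30 and -0.26. No member of either list passed the adjusted threshold.

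PMEPA1, a target of TGF-beta that restrains its signal, had responses of -0.07, 0.02 and -0.11 in replicate 3, against 0.03, 0.65 and 0.83 in replicate 1 and 0.10, 1.15 and 0.90 in replicate 2. It rose in replicates 1 and 2 (0.61, adjusted p = 0.00959), and its controls in replicate 3 were already at 8.86 to 9.54, against 7.42 to 8.10. TGFB2, a ligand, had -0.51, 0.45 and -0.15 in replicate 3, against -0.10, 0.53 and 1.00 and then 0.08, 0.89 and 0.92. At 48 h it stood at 3.67 with CsA and 3.82 in control in replicate 3, at the foot of the scale, against 8.31 and 8.26 with CsA and 7.31 and 7.33 in control in the others. ITGA3, a laminin receptor subunit, had -0.01, 0.08 and 0.33 in replicate 3, against 0.44, 0.36 and 1.06 and then 0.22, 0.45 and 0.86 (difference -0.43 ± 0.11, adjusted p = 0.536). TNC, a matrix glycoprotein, had -0.26, -0.18 and -0.01, against 0.14, 0.25 and 0.24 and then 0.02, 0.22 and 0.32.

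Of 17 tubular injury markers 13 lay lower in replicate 3, where 6148 of 10717 genes did. The median difference over the times was -0.11. It was 0.07 without replicate 3 at 48 h, near 0 (-0.0022) without replicate 1 at 48 h, and -0.32 without replicate 3 at 12 h. At 48 h alone the median was -0.55, against -0.08 over all genes, and -0.37 after quantile normalization. KRT7, a keratin of simple ducts, had responses of -0.18, -0.72 and -0.22 in replicate 3, against 0.63, 0.22 and 0.26 in replicate 1 and 0.20, 0.27 and 0.41 in replicate 2, with opposite signs at all 3 times (-0.70 ± 0.13, adjusted p = 0.41). CD44, the hyaluronan receptor, had -0.19, -0.21 and -0.90 in replicate 3, against 0.04, 0.30 and 0.09 and then 0.16, 0.14 and -0.39. HAVCR1 (KIM-1), a clinical marker of tubular injury, had -0.06, 0.32 and -0.69, against 0.14, 0.08 and -0.44 and then 0.01, 0.44 and -0.91, and overlapped at 24 and 48 h. CDH1 rose on both sides, by 0.39, 1.06 and 1.40 in replicate 3 (adjusted p = 0.0257), where 4 of 6 arrays were under 4, and by 0.31, 0.57 and 0.71 and then 0.14, 0.35 and 0.46 in replicates 1 and 2 (adjusted p = 0.0133). Its response was the larger in replicate 3 at every time, from a control level of 3.05 to 3.86, against 7.33 to 8.76 (0.53 ± 0.14, adjusted p = 0.543). SLPI, a secreted protease inhibitor, rose in replicate 3 (0.79, 0.66 and 0.24, adjusted p = 0.0437), at levels of 5.31 to 6.46. Every array of replicates 1 and 2 was under 4, so the spread in that fit came partly from values at the foot of the scale. Replicate 3 fitted alone, with no term for time, gave 0 calls.

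The interferon response genes lay higher in replicate 3 for 20 of 25 members, with a median difference of 0.15 that kept its sign in 18 of 18 alternatives (0.10 to 0.18). Over all genes 4569 of 10717 lay higher. An unadjusted p under 0.05 was reached by 3 members (IFIH1, RIGI and ISG15), where 2.58% of all genes reached it in that direction, and 0 passed the adjusted threshold or rose in replicate 3. IFIH1, a sensor of double-stranded RNA, had responses of 0.41, 0.12 and 0.64 in replicate 3, against 0.04, 0.06 and 0.10 in replicate 1 and -0.01, -0.37 and -0.03 in replicate 2. The glycolysis genes lay higher for 15 of 18 (median 0.12, 0.10 to 0.16 over the alternatives), and the immediate early genes of the AP-1 group lower for 14 of 16, where 6148 of 10717 genes lay lower (median -0.16, -0.22 to -0.11). EGR1, an immediate early factor, had -0.29, -0.16 and -2.02 in replicate 3, against -0.02, 0.11 and -0.64 and then 0.08, -0.23 and -0.93. Of 32 lists with 5 or more tested members, the median difference ran between -0.27 (ATF4 targets) and 0.21 (mitosis).

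No gene passed the test of the difference over the times, and the genes with the smallest p are given as not passing. On the lower side, NAV3 (-0.73 ± 0.10), ADRB1, the beta-1 adrenergic receptor (-0.93 ± 0.15), and C1orf159 (-0.54 ± 0.09) had all 12 arrays of replicates 1 and 2 under 4, at the foot of the scale. ZNF569 and TNS2 had levels of 4 or more throughout, with differences of -0.66 ± 0.11 and -0.64 ± 0.10. SCAPER and DSG2-AS1 had -0.92 ± 0.14 and -1.12 ± 0.16, and the other probe set of SCAPER had the opposite sign. On the higher side stood LRRC75B (0.54 ± 0.08), FURIN, the protease that matures pro-proteins (0.56 ± 0.09), DDC, the decarboxylase that makes dopamine (0.97 ± 0.16), RALY-AS1 (0.53 ± 0.09), GOLT1A, PHEX, FAM20C and ZBED5-AS1. DDC, an enzyme of the proximal tubule, had responses of -0.07, 0.05 and 0.73 in replicate 3, against -0.66, -0.79 and -0.34 in replicate 1 and -0.69, -1.27 and -0.69 in replicate 2. With CsA it stood at 4.36 to 4.97 in replicate 3, against 5.59 to 7.50 in the others, and it fell with CsA in replicates 1 and 2 (-0.74, adjusted p = 0.00599). FURIN had 0.26, 0.22 and 0.48, against -0.29, -0.52 and -0.06 and then -0.29, -0.24 and -0.05, opposite in sign at every time. The adjusted p was 0.27 for the 8 lower genes, STC2 included, for LRRC75B, FURIN and DDC, and 0.312 to 0.41 for the others.

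At 48 h the difference passed for 12 genes, 2 higher and 10 lower in replicate 3. They rest on 1 pair of replicate 3 against 2, with the spread taken from replicates 1 and 2 at all times. At an unadjusted p under 0.05 there were 323 genes higher (3.01%) and 875 lower (8.16%), a split of 580 and 538 after quantile normalization. Of the 12, 6 (PI3, ATP6V0D2, TNFAIP6, RHEX, MAP3K8 and C6orf141) had all 4 arrays of replicates 1 and 2 at 48 h under 4, at the foot of the scale. These 6 passed the level filter through replicate 3, their spread is that of values at the foot of the scale, and their differences and p are given as a description. IL1A also passed the level filter only through the 48 h CsA array of replicate 3. Its difference and p are likewise given as a description. In 10 of the 12 at least 1 of the 6 arrays at 48 h was under 4, and CCN1 and NES were the exceptions. The rule for named genes gave PI3, ATP6V0D2, TNFAIP6, TM4SF4, RHEX and IL1A, and the other 6 are named because they complete the count.

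**Figure D4:**
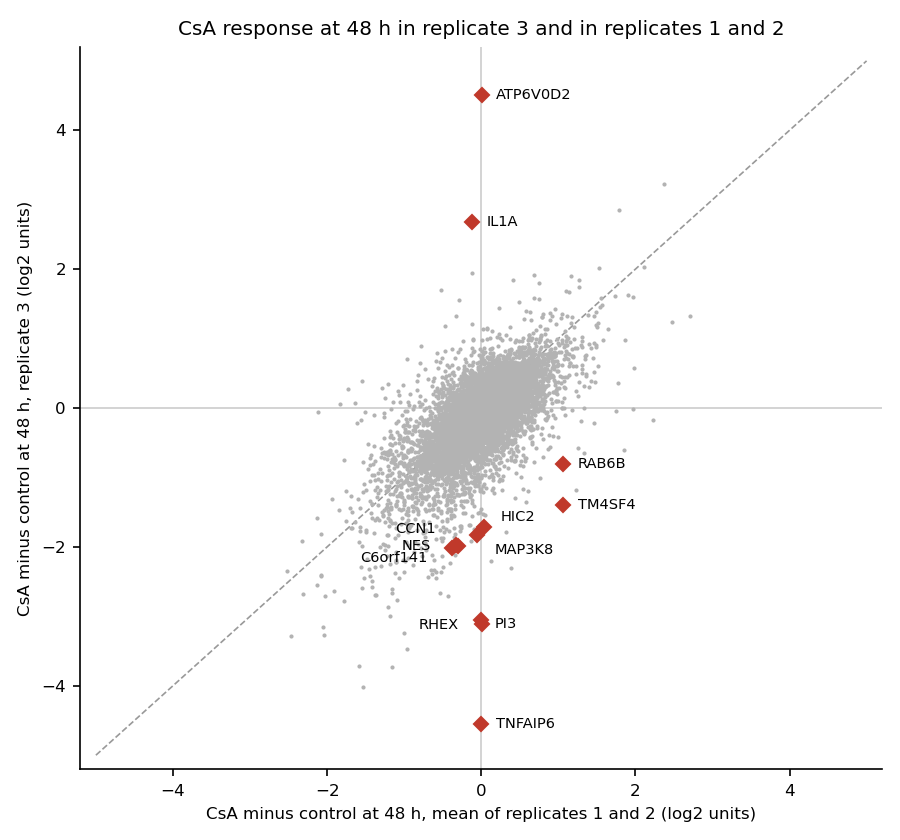
Response at 48 h (CsA minus control, log2 units) of 10717 genes in replicate 3 (vertical) against the mean of replicates 1 and 2 (horizontal). Red diamonds are the 12 genes that passed the test of the difference, and the dashed line marks equal responses. ATP6V0D2 lay at 4.51 and TNFAIP6 at -4.55 in replicate 3, both near 0 in replicates 1 and 2.

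TNFAIP6 encodes TSG-6, a hyaluronan-binding protein of inflamed tissue. In replicate 3 it stood at 10.57, 9.89 and 3.80 with CsA at 12, 24 and 48 h, against 10.84, 10.47 and 8.36 in control, while replicates 1 and 2 had 2.46 to 3.17 with CsA and 2.50 to 4.17 in control. The gene was thus high in replicate 3 and low in the others, and within replicate 3 the 48 h CsA array stood apart (difference -4.55 ± 0.26, adjusted p = 0.00715). PI3 encodes elafin, an elastase inhibitor, and had 9.38, 9.31 and 2.42 with CsA, against 9.48, 9.60 and 5.53 in control in replicate 3, and 2.31 to 2.36 on all arrays of replicates 1 and 2 (-3.12 ± 0.14, adjusted p = 0.00631). RHEX, a regulator of erythroid expansion, had 7.09, 6.50 and 3.20, against 7.07, 7.54 and 6.26, and 2.69 to 4.34 in the others (-3.05 ± 0.20, adjusted p = 0.00889). In all 3 genes the 48 h control of replicate 3 already lay below its 12 and 24 h controls.

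MAP3K8 encodes the kinase TPL2, which links inflammatory receptors to ERK. It had 7.16, 5.61 and 3.36 with CsA, against 7.47, 7.05 and 5.19 in control in replicate 3, and 3.08 to 3.34 in replicates 1 and 2. The CsA array of replicate 3 lay below its control at every time, with a mean response of -1.19 over the times (adjusted p = 0.0352). That p, like the one at 48 h, takes its spread from arrays of replicates 1 and 2 at the foot of the scale. Replicate 3 fitted alone, with no term for time, gave 0 calls. The difference at 48 h was -1.78 ± 0.15 (adjusted p = 0.0266). C6orf141 had 8.06, 7.70 and 3.78, against 8.29, 7.34 and 5.75, and 3.34 to 4.03 in the others (-1.64 ± 0.16, adjusted p = 0.0477).

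The 2 genes higher in replicate 3 were low everywhere else. ATP6V0D2, a subunit of the proton pump that acidifies vesicles, stood at 2.88, 3.09 and 8.04 with CsA, against 2.84, 2.79 and 3.53 in control in replicate 3, and at 2.79 to 3.31 in replicates 1 and 2 (4.50 ± 0.25, adjusted p = 0.00715). Its 5 other arrays in replicate 3 were all under 4. IL1A, an alarmin cytokine, stood at 2.65, 2.62 and 6.29 with CsA, against 2.60, 2.58 and 3.61 in control in replicate 3. In the others the highest levels were 4.35 with CsA and 4.58 in control, both in replicate 2 at 48 h, and the remaining arrays were at 2.83 or less. The difference was 2.80 ± 0.19 (adjusted p = 0.00889).

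**Figure D5:**
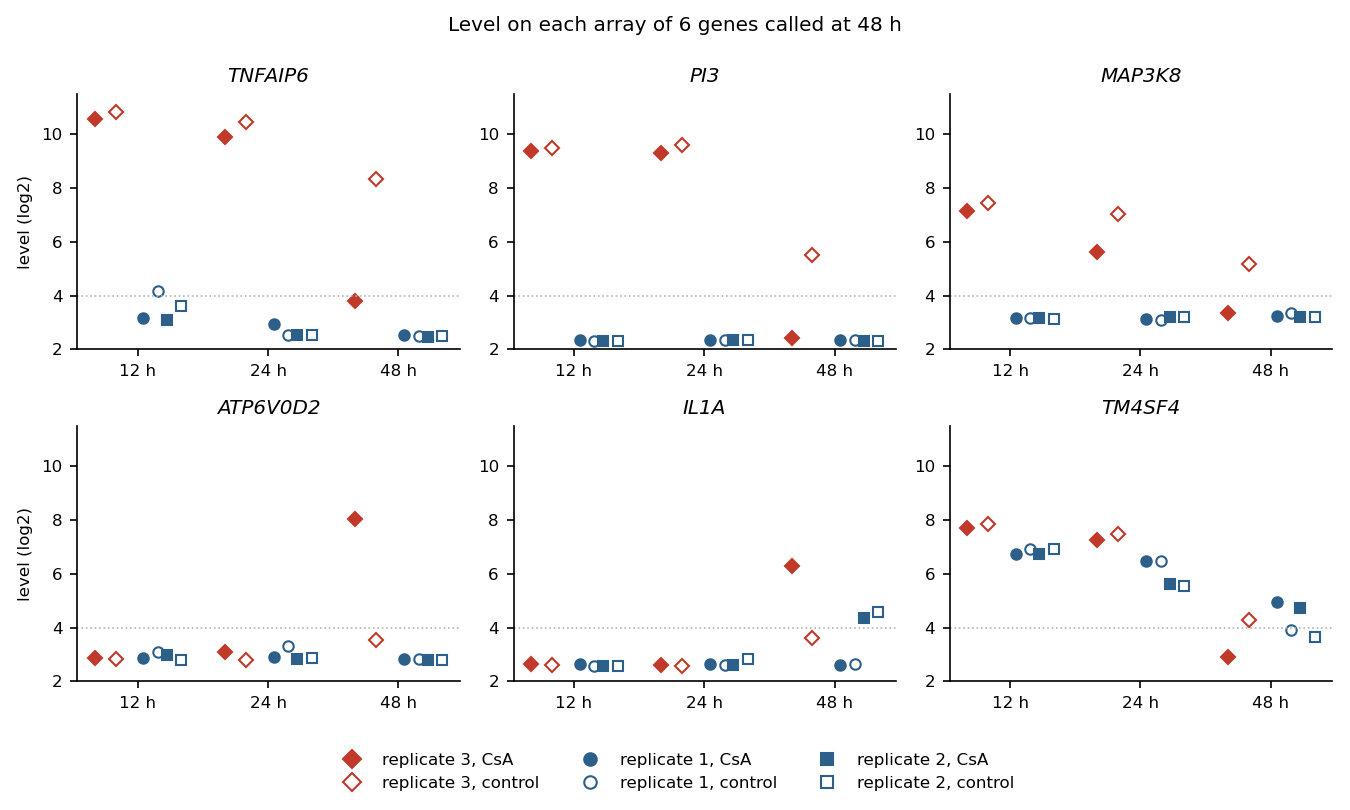
Level (log2) on each array of 6 genes that passed at 48 h, at 12, 24 and 48 h. Filled marks are CsA and open marks control, red diamonds are replicate 3, blue circles and squares are replicates 1 and 2, and the dotted line marks 4. TNFAIP6, PI3 and MAP3K8 were at 4.17 or less in replicates 1 and 2. In replicate 3 they were under 4 on the 48 h CsA array and higher on every other array. ATP6V0D2 and IL1A stood out on the 48 h CsA array of replicate 3 (8.04 and 6.29).

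TM4SF4, a tetraspanin-like membrane protein, was at 4 or more on both sides at 12 and 24 h, but 3 of its 6 arrays at 48 h were under 4. It had 7.72, 7.25 and 2.91 with CsA, against 7.84, 7.49 and 4.30 in control in replicate 3. Replicate 1 had 6.74, 6.48 and 4.95, against 6.94, 6.47 and 3.91, and replicate 2 had 6.74, 5.63 and 4.72, against 6.94, 5.56 and 3.64. At 48 h the response was -1.39 in replicate 3, against 1.04 and 1.08, so the signs were opposite (-2.45 ± 0.15, adjusted p = 0.00715). With values below 4 raised to 4 the difference was -1.14 and the call was lost (adjusted p = 0.111), as it was without replicate 1 or replicate 2 at 12 h and with the pairing ignored. RAB6B, a Golgi GTPase, also differed in sign, with -0.81, against 0.98 and 1.15 (-1.88 ± 0.16, adjusted p = 0.0266). CCN1, a matrix-associated signalling protein, had 11.65, 12.28 and 8.08 with CsA, against 11.75, 11.59 and 10.06 in control in replicate 3, and at 48 h 11.29 and 10.38 with CsA, against 11.49 and 10.79 in control in the others (-1.68 ± 0.16, adjusted p = 0.0477). HIC2, a transcriptional repressor, had a 48 h response of -1.71, against -0.05 and 0.13, and NES (nestin), an intermediate filament, had -2.01, against -0.33 and -0.44 (adjusted p = 0.0358 and 0.0477).

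The number of genes passing at 48 h was 3 without replicate 1 or without replicate 2 at 12 h, 6 without either at 24 h, 16 without replicate 1 and 7 without replicate 2 at 48 h. It was 2 with a level filter of 6, 111 with none, and 1 (TM4SF4) among genes reaching 4 on both sides at every time, a setting chosen after the data were seen. The call was lost for NES in 13 of 17 alternatives, for CCN1 in 12 of 17, for HIC2 in 9 of 17, for C6orf141 in 9 of 15, for MAP3K8 in 7 of 15, for RAB6B in 7 of 16, for TM4SF4 in 4 of 17, and for IL1A and RHEX in 3 of 15 each. It was not lost for ATP6V0D2, PI3 and TNFAIP6, which says nothing of their stability, since replicates 1 and 2 at 48 h were at the foot of the scale. Replicate 3 has 1 pair at 48 h, so that pair could not be left out. The 3-prime minus 5-prime signal of the control probe sets, a sign of RNA quality, had a difference of -0.02 for ACTB (exact permutation p = 0.889) and 0.04 for GAPDH (exact permutation p = 0.556), where the smallest p possible was 0.037.

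At 12 and 24 h no gene passed, and the genes with the smallest p stood out on single pairs of replicate 3. At 12 h HDAC11, a histone deacetylase, had a response of -1.88, against 0.59 and 0.28, with another probe set opposite over the times, KCNQ3, a potassium channel with all arrays of the others under 4, had -1.45, against 0.11 and 0.01, and ACSM3, a mitochondrial acyl-CoA ligase, had 1.25, against -0.07 and 0.00 (smallest adjusted p = 0.589). KCNQ3 had the same sign at 24 and 48 h, with -0.68 and -0.28. At 24 h ENPEP, the aminopeptidase that degrades angiotensin II, had 1.65, against 0.10 and 0.07, although another probe set went the other way over the times, ANTXR2, an anthrax toxin receptor, had -1.73, against -0.29 and -0.22, and MAP3K8 had -1.43, against 0.06 and 0.02 (smallest adjusted p = 0.233).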

How the data were processed

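Gene expression was measured on 18 Affymetrix arrays of HK-2 cells, in 6 groups of 3. The authors deposited 1 value per probe set and array, made with GCRMA per the submitters' processing notes, with no version given. The values were taken as log2 values from their range (0.845 to 15.98), which the authors did not state, and array medians lay between 2.858 and 2.924. Of 54675 probe sets, 41091 carried 1 gene symbol, 1801 several and 11721 none, and 62 were array controls. The brightest probe set stood for each gene, and 10717 genes with a highest group mean of at least 4 were tested. Depth does not apply to arrays, whose number limits the precision.

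Differences of CsA minus control were formed per time and replicate number. In all 9 pairs the 2 arrays of a number deviated together from their group means (r = 0.546 to 0.942), and each array correlated best with its own number, so the numbers were taken to pair the arrays. limma 3.58.1 in R 4.3.3 was fitted to the 9 differences, with time and a term for replicate 3 (5 residual degrees of freedom), then with a term for each time (3 residual degrees of freedom). Replicates 1 and 2 were also fitted alone with terms for time, and replicate 3 was fitted alone without them. P-values were Benjamini-Hochberg adjusted over all genes, with a threshold of 0.05, and the method was tested on simulated data. Alternatives were the level filter, every probe set, quantile normalization, raised low values, a variance trend, no pairing and leaving out each pair.

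The members and the 37 gene lists were chosen with earlier results of these data known. Named genes were those with the smallest p in each direction over the times (8) and at each time (4), the 8 largest rises and falls called in replicates 1 and 2 alone and in replicate 3 alone, the 2 members of each list with the smallest p, and preset genes. Other genes named are members counted in a list or the rest of a short count. Promoter sequences were RefSeq's, of build GRCh38.p14. Figures were drawn with matplotlib 3.10.9 in Python 3.11.15.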

Additional observations from a re-analysis of the deposited data

Results flagged for a closer look

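At 48 h, 12 genes passed the test of the difference in CsA response between replicate 3 and replicates 1 and 2 (limma). The difference was 4.50 for ATP6V0D2 and 2.80 for IL1A, which lay higher in replicate 3. It was -4.55 for TNFAIP6, -3.12 for PI3, -3.05 for RHEX and -2.45 for TM4SF4. It was -1.88 for RAB6B, -1.78 for MAP3K8, -1.75 for HIC2, -1.68 for CCN1, -1.64 for C6orf141 and -1.63 for NES. All rest on 1 pair of arrays of replicate 3 at 48 h. For PI3, ATP6V0D2, TNFAIP6, RHEX, MAP3K8 and C6orf141 all 4 arrays of replicates 1 and 2 at 48 h were under 4, so the difference is taken against values at the foot of the scale, whose spread also enters the test. These 6 are given as values and not as a shown difference in response. IL1A passed the level filter only through the 48 h CsA array of replicate 3 and is given in the same way.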

How the results depend on the processing

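None of the 12 genes that passed at 48 h changed direction under the alternatives that tested them. Every such alternative kept the replicate 3 pair at 48 h that chose these genes, so this says nothing of their stability. Of 32 list medians, 19 turned sign under at least 1 alternative, DNA replication (-0.09 to 0.26) and tubular injury markers (-0.32 to 0.07) among them, and 13 did not. The split of 276 genes higher and 603 lower over the times became 459 and 393 after quantile normalization. For the difference over the times, the 0 genes became 4 (PI3, MAP3K8, ATP6V0D2 and TNFAIP6) with no replicate block and ranged over 0 to 1 when each pair was left out. At 12 h the 0 genes became 44 with no level filter. At 24 h they became 38 with no level filter and 1 with every probe set. At 48 h the 12 genes became 19 with a level filter of 3, 2 with a filter of 6, 111 with none and 1 with the added filter on both sides, and ranged over 3 to 16 when a pair was left out. The 95 genes of replicate 3 became 184 with a filter of 6, 343 with a variance trend and 17 with no replicate block, and ranged over 0 to 355 with a pair left out. The 1610 genes of replicates 1 and 2 became 930 with no level filter, 2496 with every probe set and 0 with no replicate block, and ranged over 515 to 1752. The 1281 genes of replicates 1 and 2 alone became 348 with no level filter and 0 with no replicate block, and ranged over 0 to 1916. The share of those with the same sign in replicate 3, 92.0%, ranged over 78.9% to 100.0%. The 100.0% rests on 3 genes, and no share exists where 0 genes were called. With no replicate block, the error was the spread between the arrays of replicates 1 and 2 within a group. The cause of the changes in these counts was not tested. Quantile normalization moved the median difference over all genes by 0.09 at 48 h. Signal near the foot of the scale limits 10 of the 12 genes at 48 h, which had at least 1 array under 4 there.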
